A study of Mus musculus with 7 samples.

Results

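The 10 genes described here encode RNA-binding proteins that set the pattern of alternative splicing as myoblasts become muscle: Mbnl1, Mbnl2, Mbnl3, Celf1, Celf2, Rbfox2, Rbm24, Ptbp1, Ptbp2 and Qk. They were chosen by name for that role, and all 10 had a row of their own among the 11642 rows of the gene expression table. Total RNA was sequenced from C2C12 cells, an immortalised line of mouse myoblasts, on day 2 after serum was lowered to start differentiation. The control group si-SCR (2 samples) received a scramble siRNA, and the group si-SMaRT (2 samples) received siRNA #1 against lnc-SMaRT, a long non-coding RNA of muscle cells. In a separate experiment, RNA of differentiating C2C12 cells was recovered with probe set #1 against lnc-SMaRT or with probes against LacZ as a control (1 library each, beside 1 input library). All samples came from the same cell line, and the knock-down rested on 1 siRNA sequence.

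During myogenesis, many transcripts exchange fetal for adult exons. MBNL proteins (muscleblind-like) bind clusters of YGCY motifs and mostly favour adult exons, while CELF proteins bind U- and G-rich RNA and often act on the same exons in the opposite sense. PTBP1 binds pyrimidine tracts and holds back many muscle and neural exons, and its paralog PTBP2 is best known from developing neurons. RBFOX2 binds UGCAUG next to regulated exons, RBM24 is a muscle-enriched activator of sarcomeric exons, and the STAR protein encoded by Qk (quaking) binds ACUAAY motifs and takes part in splicing and RNA stability.

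Several of these regulators act on their own transcripts or on those of a paralog, and the exons through which they do so are shown here because the families are compared by paralog below. A 34-base exon of Ptbp1 and its counterpart in Ptbp2 are skipped when PTB proteins bind beside them, and the skipped transcripts are degraded. A 54-base exon of Mbnl1 and of Mbnl2 is repressed by MBNL proteins, and its inclusion favours nuclear localisation. Each sequence was read on the strand of the gene from the RefSeq GRCm38.p6 genome at the exons of GENCODE M21, with 100 intronic bases in lower case before the exon in capitals.
Ptbp1, chr10:79861914-79862047, plus strand: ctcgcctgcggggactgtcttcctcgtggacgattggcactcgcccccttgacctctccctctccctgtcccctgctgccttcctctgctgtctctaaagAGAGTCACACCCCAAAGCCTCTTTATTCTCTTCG
Ptbp2, chr3:119724612-119724745, minus strand: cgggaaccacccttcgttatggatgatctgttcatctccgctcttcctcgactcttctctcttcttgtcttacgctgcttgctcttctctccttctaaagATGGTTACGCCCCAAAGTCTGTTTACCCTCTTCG
Mbnl1, chr3:60614583-60614736, plus strand: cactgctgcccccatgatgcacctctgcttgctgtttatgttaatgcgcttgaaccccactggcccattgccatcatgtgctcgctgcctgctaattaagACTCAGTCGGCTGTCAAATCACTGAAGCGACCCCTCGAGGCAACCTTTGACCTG
Mbnl2, chr14:120395612-120395765, plus strand: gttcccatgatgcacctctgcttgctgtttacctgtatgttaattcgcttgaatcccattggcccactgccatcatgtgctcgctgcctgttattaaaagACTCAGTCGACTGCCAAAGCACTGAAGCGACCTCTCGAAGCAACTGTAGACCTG

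The Ptbp1 and Ptbp2 exons were identical at 26 of 34 bases (76.5%), and the Mbnl1 and Mbnl2 exons at 46 of 54 bases (85.2%). The longest run shared by the intronic windows was 9 bases for the Ptbp pair and 28 bases for the Mbnl pair. Of the protein-coding transcripts that span the exon, 4 included and 6 skipped it in Mbnl1, and 3 included and 3 skipped it in Mbnl2. CTCTCT, a PTB motif, was found at 1 position before the Ptbp2 exon and at none before the other 3 exons. TGCT, a form of the MBNL motif, was found at 5 positions before the Mbnl1 exon, at 3 before the Mbnl2 exon and at 2 before each Ptbp exon. TGCATG and ACTAAC were in none of these windows. Searched on the strand of the gene only, with overlapping matches counted, CTCTCT was present in 9.8%, TGCT in 49.7%, TGCATG in 3.3% and ACTAAC in 1.9% of the 94326 windows of 100 bases before internal coding exons of the genes tested. These shares count windows with at least 1 match and give no scale for the numbers of positions before single exons. The expression values are per gene and do not resolve these exons.

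The reads worked out from the RPKM values, which are lower limits, summed to between 11050098 and 14403424 per sample. RPKM values (reads per kilobase of gene model and per sequencing depth) were made by the authors. lnc-SMaRT was at 19.1 and 15.9 RPKM in the control samples and at 2.88 and 3.65 RPKM in the depleted ones, a log2 difference of -2.39 (SE 0.28, adjusted p = 0.000882 by limma with Benjamini-Hochberg adjustment). The muscle identity of the cells was seen in Myog at 1010, 1110, 923 and 640 RPKM and in Myod1 at 54.8, 70.1, 95.9 and 57.7 RPKM (si-SCR 1 and 2, then si-SMaRT 1 and 2, the order used for all values below). The differentiating myocyte markers had summed RPKM of 9633, 9741, 6823 and 4361, and 8 of the 10 tested were lower in both si-SMaRT samples, although none passed the limma test. In the paper, Mef2c and Mck (Ckm) were lower by qPCR after depletion. With the trend on GC content removed (described below), Ckm, Mef2c, Tnnc1 and Tnnt1 passed as lower, and the median log2 difference of the 10 was -0.54 in place of -0.69. Among 5 tested markers of undifferentiated myoblasts, Id3 and Ccnd1 rose (log2 differences of 1.60 and 1.36, adjusted p = 0.0232 and 0.0356), while Mki67 was at 0.33, Myf5 at -0.004 and Id1 at -0.01 on the same scale and did not pass. None of 4 endothelial markers had a row, 1 of 5 leukocyte markers did, and of the 6 neuronal markers only Tubb3 and Map2 had rows. In these bulk samples, fewer cells of a type and less RNA per cell cannot be told apart.

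The si-SMaRT samples stood apart from each other according to the base composition of the genes. Among genes with a GC content under 45% in their exons, the median log2 difference between si-SMaRT 2 and si-SMaRT 1 was 0.52 (2859 genes), and among genes of 50% or more it was -0.48 (4757 genes). The same medians between the si-SCR samples were -0.11 and 0.12. In the read statistics of the paper, si-SMaRT 1 lost a larger share of read pairs to the rRNA and tRNA filter than si-SMaRT 2 or the si-SCR samples. The part of this loss in the gap was not tested. Of the 10 splicing regulators, 6 had a GC content under 45%: Mbnl1 (37.8%), Ptbp2 (37.9%), Qk (39.3%), Mbnl3 (41.0%), Celf2 (42.0%) and Mbnl2 (44.1%). The regulators are therefore also given without each si-SMaRT sample or with the trend on GC content removed. That removal works on each sample's deviation from the gene's mean over the 4 samples. It therefore also takes out any difference between the groups that follows GC content.

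None of the 10 splicing regulators passed the threshold of an adjusted p of 0.05 upon lnc-SMaRT depletion. In the same limma fit 56 of 11086 genes did (0.505%), 20 higher and 36 lower in si-SMaRT. The paper's own test of these samples, edgeR on read counts at an FDR of 0.05, called more genes, most of them lower. At an unadjusted p under 0.05 in the limma fit there was 1 regulator, Qk, against 9.09% of all genes. The log2 difference was above 0 for 9 regulators and below 0 for Rbm24, and its median was 0.24 against 0.02 over all genes. For 6 regulators (Mbnl2, Mbnl3, Celf1, Celf2, Rbfox2 and Qk) both si-SMaRT samples lay above both si-SCR samples, and for none did both lie below. Over all genes tested 20.2% lay above in this way and 20.4% below. The si-SMaRT 2 sample was the highest of the 4 for 7 regulators, and the share over all genes was not counted. With the trend on GC content removed, 525 of 10457 genes passed (5.02%), 241 higher and 284 lower, so that the share of higher calls was 45.9% in place of 35.7%. None of the regulators was among them, and the median log2 difference of the regulators was again 0.24. The groups then did not overlap, with si-SMaRT higher, for 7 regulators, against 29.3% of all genes. Ptbp1 joined the 6 named above, and for Ptbp2 both si-SMaRT samples lay below the controls. How many of all genes lay below with the GC trend removed was not counted.

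**Figure D1:**
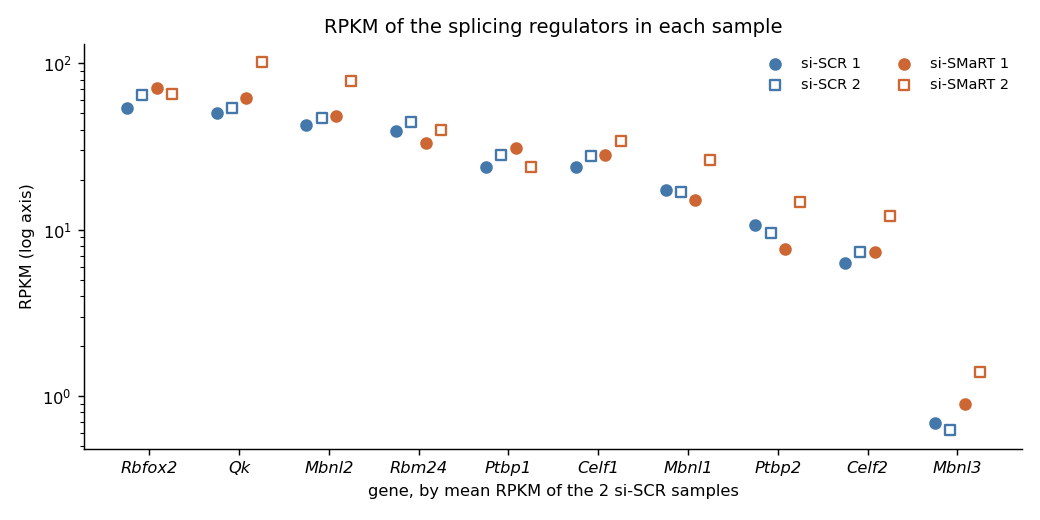
RPKM (log axis) of the 10 splicing regulators in each of the 4 samples, ordered by the mean of the si-SCR samples. si-SCR is blue and si-SMaRT orange, replicate 1 is a filled circle and replicate 2 an open square. Rbfox2 stood at 54.0 to 71.5 RPKM and Mbnl3 at 0.623 to 1.41 RPKM. The open orange square was the highest of the 4 for 7 genes, without a count over all genes.

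In the control cells the regulators covered a wide range of levels, which RPKM compares per length of the gene model. Rbfox2 had the highest mean level (59.4 ± 7.5 RPKM, SD, n = 2), above 92.0% of all rows, followed by Qk (52.1 ± 2.9), Mbnl2 (45.0 ± 3.0) and Rbm24 (41.7 ± 3.7). Ptbp1 (26.1 ± 3.2) and Celf1 (25.9 ± 2.7) came next, and Mbnl1 (17.1 ± 0.23), Ptbp2 (10.1 ± 0.80) and Celf2 (6.81 ± 0.71) lay lower. Mbnl3 was at the foot of the range with 0.655 ± 0.045 RPKM, above 7.46% of all rows. Neighbours in this order overlapped in their 2 values for Rbfox2 and Qk, for Mbnl2 and Rbm24, and for Ptbp1 and Celf1. In si-SMaRT the order began with Qk (81.8 ± 27.7 RPKM), Rbfox2 (68.5 ± 4.2) and Mbnl2 (63.4 ± 21.4), whose values overlapped from each to the next.

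Mbnl2 had the highest RPKM of the muscleblind genes in every sample. Its values were 42.9, 47.2, 48.2 and 78.5 RPKM. Both si-SMaRT values were above both controls, but si-SMaRT 1 exceeded si-SCR 2 by a small margin and si-SMaRT 2 stood far above the rest. Mbnl2 differed between the groups by 0.45 on the log2 scale (95% interval -0.15 to 1.05, adjusted p = 0.691). It was 0.80 without si-SMaRT 1 and 0.10 without si-SMaRT 2, and 0.35 (-0.01 to 0.71) with the GC trend removed.

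Mbnl1, the founding muscleblind gene, whose protein is sequestered in myotonic dystrophy, was at 17.3, 17.0, 15.0 and 26.4 RPKM. The si-SMaRT values lay on either side of the controls, so the groups overlapped. The log2 difference was 0.21 (-0.41 to 0.84, adjusted p = 0.889). It turned to -0.19 without si-SMaRT 2, was 0.62 without si-SMaRT 1 and was 0.02 with the GC trend removed.

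Mbnl3, the paralog linked to undifferentiated myoblasts, was at 0.687, 0.623, 0.902 and 1.41 RPKM, from 76, 77, 89 and 176 reads. Both si-SMaRT samples were above both controls at a low level. The log2 difference of 0.70 on the scale of log2(RPKM + 0.1), which understates changes of low genes, was the largest among the regulators (-0.03 to 1.43, adjusted p = 0.571). It ranged from 0.41 without si-SMaRT 2 to 1.00 without si-SMaRT 1, and was 0.56 (0.07 to 1.04) with the GC trend removed.

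Within the muscleblind family, Mbnl2 held 70.5% and 72.8% of the summed RPKM of the controls, and 75.2% and 73.9% after depletion. Mbnl1 held 28.4%, 26.2%, 23.4% and 24.8%, and Mbnl3 1.13%, 0.962%, 1.41% and 1.32%. The ratio of Mbnl2 to Mbnl1 was 2.48 and 2.78 in the controls and 3.21 and 2.98 after depletion. For each of these shares the groups stayed apart, and with the GC trend removed the ratio was 2.44, 2.66, 2.86 and 3.55. With 2 samples a group an exact permutation test cannot go below p = 0.333, so the shares are given as a description. They rest on RPKM, which divides by a gene model of 18717 bases for Mbnl1 and of at least 4552 bases for Mbnl2. The recovered reads were 4099, 4491, 3176 and 7064 for Mbnl1. For Mbnl2 they were at least 2471, 3035, 2477 and 5115, so the order in reads is not settled.

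**Figure D2:**
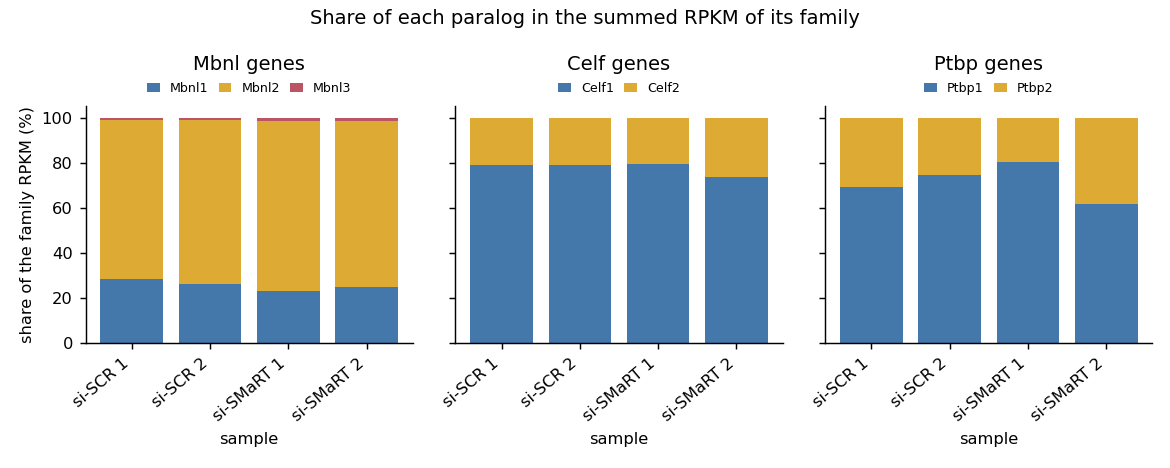
Share (%) of each paralog in the summed RPKM of its family, as stacked bars for each of the 4 samples. Mbnl2 made up 70.5% to 75.2% of the Mbnl sum, Celf1 73.9% to 79.4% of the Celf sum, and Ptbp1 61.9% to 80.2% of the Ptbp sum, where the lowest and the highest share were both in si-SMaRT.

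Celf1, a CELF gene expressed in many tissues whose protein falls as muscle matures, was at 24.0, 27.8, 28.3 and 34.2 RPKM. The groups did not overlap, with a gap between si-SCR 2 and si-SMaRT 1 that was smaller than the spread within either group. Celf1 differed by 0.27 on the log2 scale (-0.29 to 0.83, adjusted p = 0.840), by 0.41 without si-SMaRT 1, by 0.13 without si-SMaRT 2 and by 0.21 with the GC trend removed. Celf2, its paralog with a part in heart, brain and lymphocytes, was at 6.30, 7.31, 7.36 and 12.1 RPKM. Again si-SMaRT 1 lay close to si-SCR 2 and si-SMaRT 2 stood apart. The log2 difference of Celf2 was 0.47 (-0.16 to 1.096, adjusted p = 0.690), 0.11 without si-SMaRT 2, 0.83 without si-SMaRT 1 and 0.33 with the GC trend removed. Celf1 was 3.80 times Celf2 in both controls, 3.85 times in si-SMaRT 1 and 2.83 times in si-SMaRT 2. After removal of the GC trend the ratios were 3.79, 3.62, 3.56 and 3.23. These are ratios of RPKM, with gene models of 8446 bases for Celf1 and 25884 bases for Celf2. The recovered reads were 2562, 3318, 2700 and 4137 for Celf1 and 2064, 2675, 2151 and 4484 for Celf2.

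Ptbp1, the pyrimidine tract repressor that declines in differentiating muscle, was at 23.8, 28.3, 31.0 and 24.0 RPKM. The groups overlapped, with si-SMaRT 1 the highest sample and si-SMaRT 2 close to the lowest. The log2 difference was 0.07 (-0.50 to 0.64, adjusted p = 0.967). It was -0.11 without si-SMaRT 1, 0.25 without si-SMaRT 2 and 0.21 (-0.10 to 0.52) with the GC trend removed. Ptbp2 was at 10.7, 9.53, 7.63 and 14.8 RPKM. Here the order of the si-SMaRT samples was turned around, with si-SMaRT 1 below and si-SMaRT 2 above both controls. The log2 difference of Ptbp2 was 0.07 (-0.58 to 0.73, adjusted p = 0.969), but -0.40 without si-SMaRT 2, 0.55 without si-SMaRT 1 and -0.11 (-0.42 to 0.19) with the GC trend removed.

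The ratio of Ptbp1 to Ptbp2 was 2.24 and 2.97 in the controls, reached 4.06 for si-SMaRT 1 and was 1.63 for si-SMaRT 2. The depleted samples thus held both the highest and the lowest ratio. Ptbp1 is the most GC-rich of the 10 regulators (55.1%) and Ptbp2 has nearly the lowest GC content (37.9%). With the GC trend removed the ratios were 2.16 and 2.44 for the controls and 2.86 and 2.90 after depletion. The removal takes out the part of a gap that follows GC content, so the smaller spread between the si-SMaRT samples follows from it. The groups of ratios then no longer overlapped, and how often this occurs for other pairs of genes was not counted. The difference in this ratio was not tested.

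Qk was at 50.1, 54.2, 62.3 and 101 RPKM. Both si-SMaRT values were above both controls, and si-SMaRT 2 was 1.63 times si-SMaRT 1. The log2 difference was 0.61 (0.004 to 1.21, unadjusted p = 0.0486, adjusted p = 0.544). It was 0.96 without si-SMaRT 1, 0.26 without si-SMaRT 2 and 0.44 (0.11 to 0.77, adjusted p = 0.107) with the GC trend removed.

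Rbfox2, the Fox protein gene of myoblasts, was at 54.0, 64.7, 71.5 and 65.5 RPKM. The groups did not overlap, and the lower si-SMaRT sample was close to the higher control. Rbfox2 differed by 0.21 on the log2 scale (-0.34 to 0.77, adjusted p = 0.872). It ranged from 0.08 without si-SCR 1 to 0.34 without si-SCR 2 and was 0.26 with the GC trend removed. Rbm24 was at 39.1, 44.3, 33.2 and 39.8 RPKM. The groups overlapped, and Rbm24 was the only regulator with a mean below the controls (log2 difference -0.20, -0.75 to 0.36, adjusted p = 0.885). The difference of Rbm24 was -0.06 without si-SMaRT 1, -0.33 without si-SMaRT 2 and -0.19 with the GC trend removed. Of 10 tested myocyte markers, 8 were lower in both si-SMaRT samples, with none past the threshold in the deposited values and 4 past it with the GC trend removed, and their part in the values of Rbm24 was not tested.

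**Figure D3:**
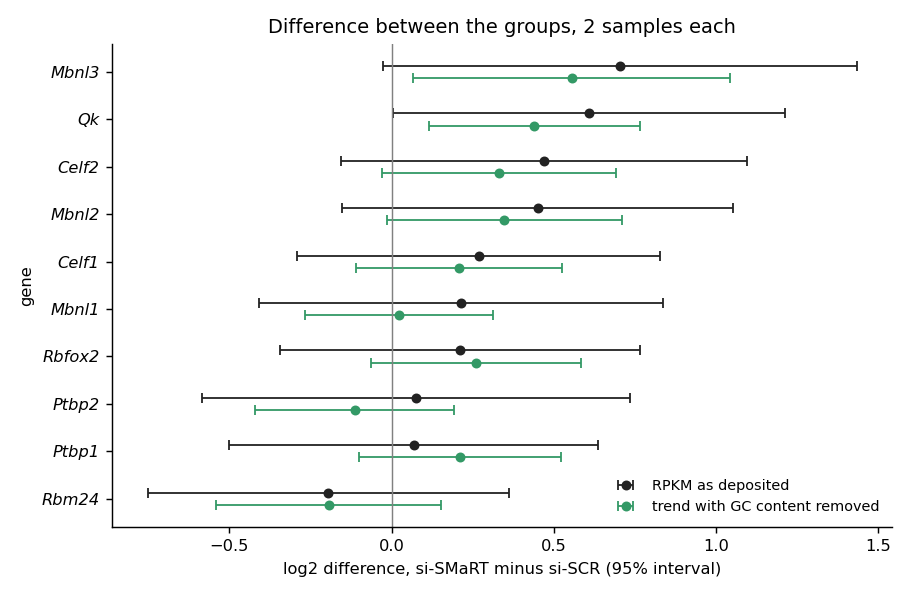
Log2 difference (si-SMaRT minus si-SCR, 2 samples each) of each regulator with its 95% interval from limma, for the deposited RPKM (black) and with the trend on GC content removed (green). The black interval of Qk, 0.004 to 1.21, was the only black interval that left out 0, and the green intervals of Qk and Mbnl3 did so too. No gene passed after adjustment over all genes in either fit.

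The gap between the si-SMaRT samples was large for most regulators and followed their GC content. The ratio of si-SMaRT 2 to si-SMaRT 1 was 1.93 for Ptbp2, 1.75 for Mbnl1, 1.64 for Celf2, 1.63 for Qk and Mbnl2 and 1.56 for Mbnl3, which are the 6 genes under 45% GC. It was 1.21 for Celf1 and 1.2 for Rbm24, at 46.3% and 49.4% GC. It was 0.917 for Rbfox2 (51.3% GC) and 0.775 for Ptbp1. Across the 10 genes, which share the same pair of libraries and are no replicates, Spearman's rho between GC content and this gap was -0.93. Between the si-SCR samples the ratios ran from 0.893 for Ptbp2 to 1.2 for Rbfox2, and rho was 0.87. The median size of the gap between the si-SMaRT samples was 0.65 on the log2 scale before and 0.12 after removal of the GC trend. Between the si-SCR samples it was 0.17 and 0.19. The removal takes out the part of a gap that follows GC content, so the fall between the si-SMaRT samples is no separate result.

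**Figure D4:**
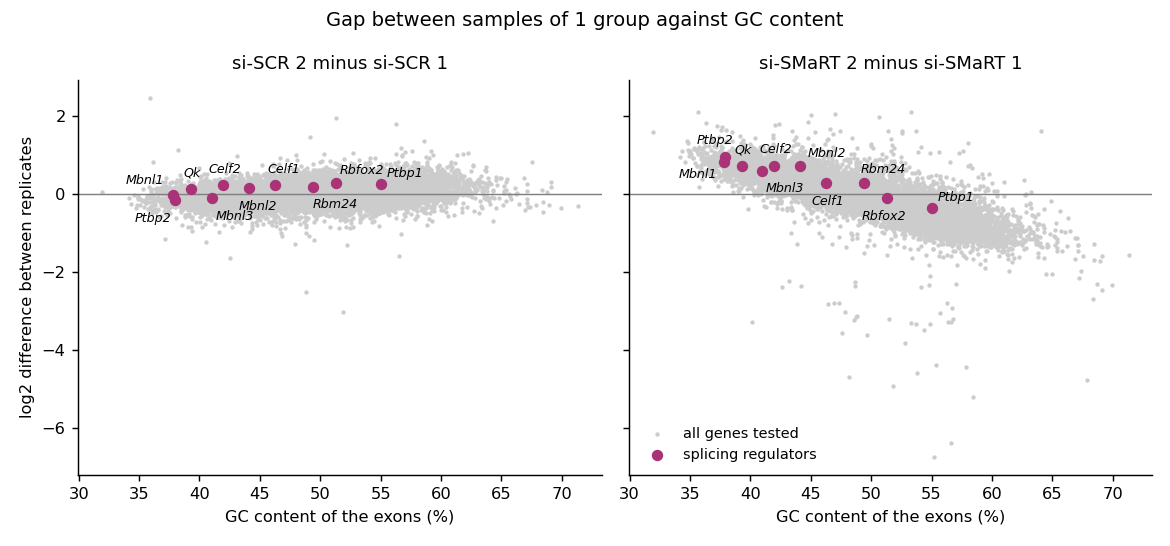
Log2 difference between the samples of 1 group (left, si-SCR 2 minus si-SCR 1; right, si-SMaRT 2 minus si-SMaRT 1) against the GC content (%) of the exons, for all genes tested with a GC content (grey) and the splicing regulators (purple). In the right panel the regulators run from 0.94 for Ptbp2 to -0.37 for Ptbp1 along the grey cloud, and in the left panel they lie between -0.16 and 0.26.

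When si-SMaRT 1 was left out, 6 regulators passed the threshold as higher in si-SMaRT: Qk (adjusted p = 7.66e-05), Mbnl2 (0.00113), Celf2 (0.00156), Mbnl1 (0.0134), Mbnl3 (0.0182) and Ptbp2 (0.0377). In that fit 11.3% of all genes were called higher. Its spread comes from the si-SCR pair alone, and the lone si-SMaRT sample is assumed to vary like the controls. These 6 are the regulators with a GC content under 45%. When the GC trend was removed as well, none passed without si-SMaRT 1, and the lowest adjusted p was 0.0613 for Mbnl2.

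Related genes outside the 10 were read from 4 lists, which hold splicing regulators and, in the last list, genes with exons switched in muscle. Of 34 further tissue regulators, 15 were tested and none passed, with a median log2 difference of 0.22, or 0.11 with the GC trend removed. In 5 of them both si-SMaRT samples were above the controls and in 1 both were below. Among the leading ones were Khdrbs1 (Sam68; 8.29, 9.78, 11.0 and 14.5 RPKM), Elavl1 (HuR; 13.2, 15.0, 18.7 and 20.5) and Tial1 (6.30, 6.83, 7.42 and 10.3). Their log2 differences lay between 0.41 and 0.48, with adjusted p from 0.625 to 0.727, and between 0.22 and 0.37 with the GC trend removed.

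Of 22 SR proteins and their kinases, 19 were tested and none passed (median 0.14, or 0.097 with the GC trend removed). SR proteins bind exonic enhancers, and SRPK and CLK kinases phosphorylate them. Srpk3, the SR protein kinase of striated muscle, was at 21.5, 20.9, 14.0 and 9.11 RPKM, so that both si-SMaRT samples were below the controls. Its log2 difference was -0.90 (SE 0.28, adjusted p = 0.238), and with the GC trend removed it was -0.77 and passed (adjusted p = 0.0219). In that fit 5.02% of all genes passed, and Srpk3 did not pass with a block for replicate number added. Clk3 was at 14.2, 15.2, 11.3 and 8.24 RPKM (log2 difference -0.60, adjusted p = 0.534), with -0.47 after removal of the GC trend. In the other direction Srsf2 was at 69.9, 82.1, 99.7 and 119 RPKM and Srrm1 at 3.85, 4.98, 5.63 and 7.30 RPKM (0.52 and 0.54, adjusted p = 0.584 and 0.606, both 0.47 with the GC trend removed).

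Of 25 hnRNP proteins, 20 were tested, 19 had a log2 difference above 0 and none passed (median 0.16). The median of this list was 0.062 with the GC trend removed. For 7 both si-SMaRT samples were above the controls and for none below. Hnrnpd (AUF1) was at 4.29, 4.76, 6.76 and 7.56 RPKM and Hnrnpa0 at 26.5, 28.7, 40.7 and 38.3 RPKM (log2 differences 0.65 and 0.52, adjusted p = 0.463 and 0.577), and at 0.50 and 0.66 with the GC trend removed. Hnrnpab and Hnrnpul2 followed with 0.34 and 0.28 (adjusted p = 0.779 and 0.836), or 0.37 and 0.25 with the GC trend removed.

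Of 15 genes known for exons that switch in muscle, 14 were tested at the level of the whole gene, and none passed (median -0.18, or -0.11 with the GC trend removed). Tnnt3, fast troponin T, was at 1880, 1520, 767 and 882 RPKM (log2 difference -1.04, adjusted p = 0.171), and Tnnt2, cardiac troponin T, at 253, 244, 165 and 143 RPKM (-0.69, adjusted p = 0.378). Bin1, which shapes T-tubules, was at 385, 409, 311 and 219 RPKM (-0.61, adjusted p = 0.544). With the GC trend removed these differences were -0.92, -0.63 and -0.45, and none passed. Actn1, the non-muscle actinin, was at 25.4, 33.7, 49.1 and 41.8 RPKM (0.63, adjusted p = 0.472), and with the GC trend removed it passed (0.71, adjusted p = 0.037). Actn1 did not pass with a block for replicate number added to that fit. For both troponin genes the values lay lower alongside the myocyte markers given above, and the part of those markers was not tested.

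**Figure D5:**
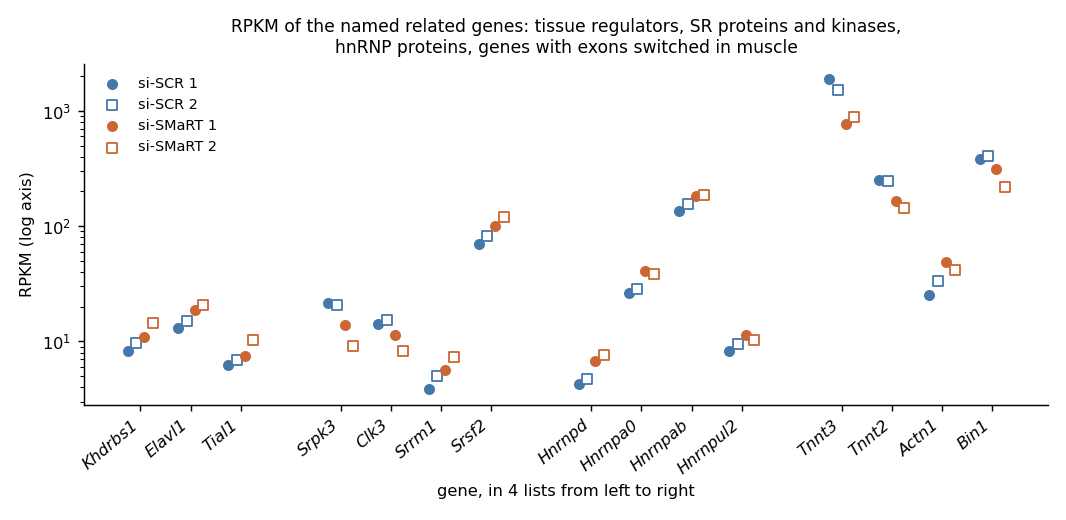
RPKM (log axis) in each sample of the 15 related genes named from the 4 lists, with si-SCR in blue, si-SMaRT in orange, replicate 1 as a filled circle and replicate 2 as an open square. That the groups stay apart follows from the rule that chose these genes. Srpk3, Clk3, Tnnt3, Tnnt2 and Bin1 lie lower in si-SMaRT and the others higher.

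In the pull-down, no peak of the lnc-SMaRT probes (345 peaks) or of the LacZ probes (336 peaks) lay on an exon of any of the 10 regulators, nor anywhere in their genes on the same strand. Without depth at these genes, an absent peak sets no limit on the RNA recovered. The share of all genes with a peak was not counted, so the absence at these 10 genes has no scale. Among the related genes, Tnnt3 had lnc-SMaRT peaks at chr7:142507601-142507800 and chr7:142515601-142515800. Tpm1, a tropomyosin, had lnc-SMaRT peaks at chr9:67032801-67033000 and chr9:67035801-67036000, of which the first bin was also a LacZ peak. Hnrnpm had 9 peaks with the LacZ probes and none with the lnc-SMaRT probes. Each pull-down was 1 library, with no replicate.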

How the data were processed

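The members and the gene lists were chosen with earlier results of these data known. Per the methods, the authors ran Trimmomatic on the reads, used Bowtie 2 to discard those from rRNA and tRNA, aligned to GRCm38 with TopHat2, counted genes strand-aware with htseq-count, dropped genes of low CPM, scaled by TMM and made the deposited RPKM values with edgeR. The deposited p-value of each peak came from Piranha in bins of 200 bases, with the input as covariate for LacZ; for lnc-SMaRT the methods name calls against the input and against LacZ, and which of these the deposited list holds is not given in the sources used here.

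Groups came from the sample titles. Genes whose mean RPKM reached 0.5 were tested on log2(RPKM + 0.1) by limma (version 3.58.1, R 4.3.3), with lmFit and a trended eBayes, two-sided, Benjamini-Hochberg adjustment and a threshold of 0.05, 2 samples against 2, and the step was tested on simulated data. The study describes the samples of a group as separate cell populations; the labels do not add to this. Joined rows of several genes (576) were not read for lists. GC content came from the merged exons of GENCODE M21 in GRCm38.p6 (10951 of 11642 rows matched). Its trend was removed by loess, fitted in each sample to the deviation from the gene's mean over the 4 samples. A difference between the groups that follows GC content is thereby removed too. Reads were recovered from the ratios of a gene's RPKM values for all rows, exactly for 6883 and otherwise as lower limits. Peaks were joined to exons on the same strand with bedtools 2.31.1 (at least 1 base). Named were all members, lnc-SMaRT, Myod1, Myog and, per related list, the called genes and the largest differences among genes without overlap, up to 4 in all, of which 1 gene is not reported here; the other markers, Hnrnpm and Tpm1 were named after their values were seen.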

Additional observations from a re-analysis of the deposited data

How the results depend on the processing

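The number of genes past the threshold, 56, was 37 with quantile normalization, 104 with voom on recovered reads, 525 with the GC trend removed and 109 with the replicate block and the GC trend removed. Leaving out 1 sample gave 24 to 2908 genes, and 0 to 1207 with the GC trend also removed (1207 and 1077 without si-SMaRT 1 and 2, 1 and 0 without si-SCR 1 and 2). Same-numbered samples deviated from their group means in opposite directions (correlation -0.36). With 2 samples a group this is a single value, and it does not settle whether the replicate numbers pair the samples. The replicate block gave 96 genes and no regulator. A crossed pairing, added after seeing the data, gave 487 genes, no regulator and 2 related genes. The count of regulators, 0, was 0 to 6 when 1 sample was left out, with the 6 called without si-SMaRT 1, and 0 in all other alternatives run. The count of related genes, 0, was 2 with the GC trend removed, 0 to 24 when 1 sample was left out (24 without si-SMaRT 1, 4 without si-SMaRT 2) and 0 to 7 with both (7 without si-SMaRT 2, 6 without si-SMaRT 1). The cause of these shifts was not tested.

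The sign changed for 3 regulators. Ptbp2 was at -0.11 with the GC trend removed, with and without the replicate block, between -0.40 and 0.55 when 1 sample was left out (-0.006 without si-SCR 2), and with both at -0.20 and -0.029 without si-SMaRT 2 and 1 and at -0.091 and -0.136 without si-SCR 1 and 2. Mbnl1 lay between -0.19 and 0.62 and Ptbp1 between -0.11 and 0.25 (-0.05 without si-SCR 1) when 1 sample was left out. Mbnl1 was at -0.02 without si-SCR 1 and with the GC trend removed. The lnc-SMaRT difference kept its sign in all 19 alternatives and its call in 17. Mbnl3 was not tested at a mean RPKM of at least 5. With at least 50% of a peak required on an exon, none of the lnc-SMaRT peaks on Tnnt3 and Tpm1 remained.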
